A study of Mus musculus with 13 samples.

Results

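The interaction described here asks whether diabetes of the splenocyte donor came with a different RNA profile in the recipient's perivascular adipose tissue when the donor also lacked Nlrp3. Splenocytes are the immune cells of the spleen, and perivascular adipose tissue is the fat that surrounds blood vessels. All samples came from C57BL/6 mice that had received splenocytes, and bulk RNA was sequenced from this fat. The 4 groups differed in the donor. WTS-R recipients (n = 3) were given cells of wild-type donors and NS-R recipients (n = 3) cells of donors without Nlrp3. TS-R recipients (n = 4) were given cells of donors with type 2 diabetes (T2DM), and NTS-R recipients (n = 3) cells of diabetic donors that also lacked Nlrp3. Groups follow the sample titles, because the genotype label leaves unsaid which of the mice, donor or recipient, it refers to. The labels give no age, sex, collection time or batch. The members are all genes that passed a low-count filter, 17270 of the 34013 in the count table. For each gene the interaction is (NTS-R minus NS-R) minus (TS-R minus WTS-R) on the log2 scale, from 1 edgeR fit over all 13 libraries. It is negative where NTS-R stood lower than it would if the donor diabetes difference and the donor genotype difference simply added up, and positive where it stood higher.

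Nlrp3 is the sensor of an inflammasome, a protein complex that assembles through the adaptor Pycard, activates caspase-1 and so leads to the maturation of the cytokines IL-1β and IL-18. It is best known in macrophages, monocytes and neutrophils. Perivascular fat of the mouse thoracic aorta resembles brown fat, with Ucp1-expressing adipocytes beside vessel wall cells, nerve endings and resident immune cells.

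The libraries held 14216706 to 37011122 counts. Levels are given as CPM (counts scaled to library size with TMM factors) and per-library values follow the replicate order. The adipokine gene Adipoq stood at 1668 to 1744 CPM in WTS-R, 1089 to 1609 in NS-R, 363 to 1298 in TS-R and 1253 to 1808 in NTS-R, so adipocyte RNA was present in all 13 libraries. Some libraries stood apart within their group. NS-R replicates 1 and 2 carried airway epithelium genes, with 7171 and 14427 CPM summed over 16 genes against 5.26 to 8.92 CPM in the other 11 libraries. TS-R replicate 3 carried the most lymphocyte RNA and the least adipocyte RNA, and TS-R replicate 1 the most skeletal muscle RNA. NS-R replicate 3 and TS-R replicate 3 had more Xist than Y-linked Ddx3y, unlike the other 11. Since bulk RNA was measured, fewer cells of a type and less RNA per cell cannot be told apart.

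No gene passed an adjusted p of 0.05 for the interaction in edgeR, and the lowest adjusted p was 0.0823. The smallest p-values were those of the immediate early transcription factor genes Egr3 and Egr2, followed by Hid1, Asprv1, Stc2 and the cytokine gene Il1b. The means of these 6 genes were higher in NS-R and TS-R than in WTS-R and NTS-R. The background share of genes called was 0% for both signs. Taking p without adjustment, below 0.05, 2353 genes (13.6%) had a negative interaction and 812 (4.7%) a positive one. Other tools called more: DESeq2 gave 991 negative (5.75%) and 95 positive (0.551%), and limma voom with quality weights gave 1251 (7.24%) and 621 (3.6%). Both of these tools called 637 of the same genes as negative and 82 as positive. The median over all genes tested was -0.06. The edgeR count of 0 depended on single libraries. Leaving out TS-R replicate 1 gave 510 negative and 7 positive genes, leaving out NS-R replicate 3 gave 295 and 3, leaving out TS-R replicate 4 gave 63 and 8, and leaving out TS-R replicate 3 gave 5 and 0. The labels do not say that libraries came from separate mice, so the p-values speak only of the spread among these libraries. No gene passed an adjusted p of 0.05 in edgeR for the simple differences either. Below an unadjusted p of 0.05, TS-R minus WTS-R had 2622 higher (15.2%) and 1221 lower genes (7.07%), NTS-R minus NS-R 216 (1.25%) and 883 (5.11%), NTS-R minus TS-R 966 (5.59%) and 2428 (14.1%), and NS-R minus WTS-R 850 (4.92%) and 67 (0.388%).

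**Figure D1:**
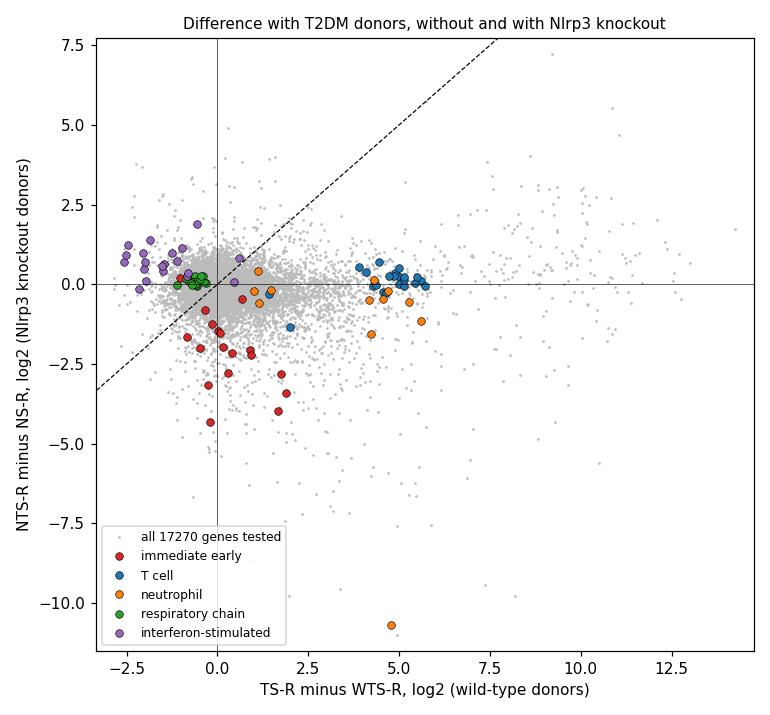
Each point is 1 of 17270 genes; the horizontal axis is the log2 difference TS-R minus WTS-R, the vertical axis the log2 difference NTS-R minus NS-R, and the dashed line marks an interaction of 0. Immediate early genes (red) lie mostly below 0 on the vertical axis, T cell genes (blue) and most neutrophil genes (orange) lie to the right near 0 on the vertical axis, and respiratory chain (green) and most interferon-stimulated genes (purple) lie left of 0 on the horizontal axis.

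Negative interactions came mostly from genes whose means in NS-R and TS-R both stood above WTS-R and NTS-R. This held for 1885 of the 2353 genes (80.1%), and for 21.9% of all genes tested. A negative contrast favours that order by its form, so these counts describe the genes and test nothing. TS-R had the highest mean in 76.1% of the 2353 and NS-R in 23.9%. A single library, TS-R replicate 3, held the highest value in 64.5% of them, against 29.7% of all genes. Every NS-R and TS-R library stood above every WTS-R and NTS-R library for 114 genes (0.66% of those tested). Of these, 113 were among the 2353, which the form of the contrast also favours. Among the 812 genes with a positive interaction the mean was lowest in TS-R for 87.9%, and for 34% of all genes tested. A positive contrast favours low NS-R and TS-R values by its form. TS-R replicate 3 held the lowest value in 59.5% of the 812, against 28.4% of all genes. Every NS-R and TS-R library lay below every other library for 68. Over all genes tested that pattern was found for 78 (0.452%).

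Immediate early genes, which encode transcription factors and regulators made within minutes of a stimulus, such as a growth factor or a cytokine, included the 2 genes with the lowest adjusted p. Of 18 tested members of a 20-gene list, 11 had a negative interaction at an unadjusted p under 0.05, beside a background of 13.6%, and none a positive one. The list's median interaction was -2.36. NS-R had the highest mean in 17 of the 18 and NTS-R the lowest in 15. The list's median donor diabetes difference was 0.12 for wild-type donors and -2.03 for knockout donors. Summed over the 20 genes, levels were 836 to 1220.0 CPM in WTS-R, 1478 to 3273 in NS-R, 655 to 1609 in TS-R and 484 to 646 in NTS-R.

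Egr3, a zinc finger transcription factor of the early growth response family, stood at 5.84, 3.65 and 10.5 CPM in WTS-R, 34.4, 18.8 and 30.3 in NS-R, 14.1, 35.5, 24.2 and 10.4 in TS-R, and 0.809, 2.36 and 2.18 in NTS-R. All NTS-R libraries lay below all others, and all NS-R libraries above all WTS-R libraries. The interaction was -5.63 (SE 0.77, adjusted p = 0.0823, unadjusted p = 7.08e-06), with a donor diabetes difference of 1.65 (SE 0.50) for wild-type donors and -3.98 (SE 0.58) for knockout donors. Its relative Egr2, also a regulator of Schwann cell and lymphocyte programmes, stood at 1.22, 1.51 and 3.79 CPM in WTS-R, 10.8, 14.1 and 8.66 in NS-R, 6.57, 10.1, 11.7 and 3.78 in TS-R, and 0.867, 0.686 and 1.61 in NTS-R. NS-R did not overlap WTS-R or NTS-R, and TS-R replicate 4 lay just below WTS-R replicate 3. The interaction was -5.29 (SE 0.74, adjusted p = 0.0823, unadjusted p = 9.53e-06). Egr1, the family's most widely induced member, stood at 22.3, 50.3 and 59.1 CPM in WTS-R, 259, 336 and 81.3 in NS-R, 265, 217, 57.4 and 52.9 in TS-R, and 33.4, 28.4 and 35 in NTS-R. It had an interaction of -4.56 (SE 0.93, adjusted p = 0.115), and the 3 NTS-R libraries lay close together among the low values.

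**Figure D2:**
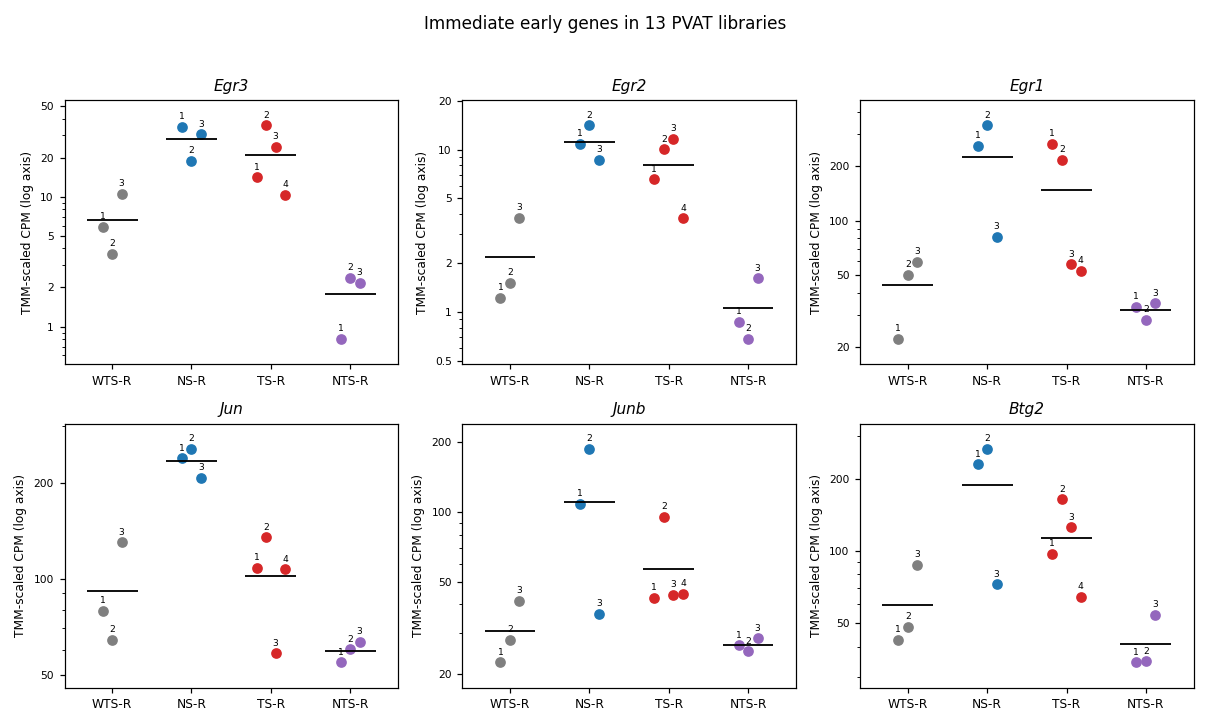
TMM-scaled CPM on a log axis for 6 immediate early genes in each library, numbered by replicate, with the group mean as a bar. Egr3 and Egr2 were high in NS-R and TS-R, Jun was high in NS-R, and NTS-R held the lowest mean for all 6.

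Genes of the transcription factor AP-1 had their highest means in NS-R. Jun, a core AP-1 subunit, stood at 79.3, 64.5 and 130.0 CPM in WTS-R, 238, 255 and 207 in NS-R, 108, 135, 58.5 and 107 in TS-R, and 54.8, 60.2 and 63.4 in NTS-R. NS-R lay above every other library, while TS-R overlapped WTS-R, and the interaction was -2.13 (SE 0.42, adjusted p = 0.115). Junb stood at 22.5, 28.1 and 41.4 CPM in WTS-R, 109, 187 and 36.5 in NS-R, 42.7, 95.4, 44 and 44.4 in TS-R, and 26.6, 25.1 and 28.5 in NTS-R, with an interaction of -2.93 (SE 0.68, adjusted p = 0.125). All TS-R libraries lay above all WTS-R and NTS-R libraries, and NS-R replicate 3 lay within the WTS-R range. Fos and Fosb had interactions of -3.09 (SE 1.17, adjusted p = 0.199) and -4.12 (SE 1.06, adjusted p = 0.142), and their highest values were 484 and 141 CPM in NS-R replicate 2. Nr4a1, an orphan nuclear receptor gene, stood at 269, 169 and 373 CPM in WTS-R, 528, 709 and 328 in NS-R, 154, 398, 93.2 and 263 in TS-R, and 54.3, 49.7 and 72.4 in NTS-R. NTS-R was lowest without overlap and the interaction was -2.90 (SE 0.67, adjusted p = 0.125). Btg2, an antiproliferative gene, and Ier2 had interactions of -3.12 (SE 0.65, adjusted p = 0.115) and -2.58 (SE 0.70, adjusted p = 0.152). Nr4a3 was the list's only positive member at 1.24 (SE 1.15, adjusted p = 0.605), with 0.76 without NTS-R replicate 3, 0.81 without TS-R replicate 1 and 2.38 without TS-R replicate 4.

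DESeq2 called 9 of the 18 immediate early genes as negative, beside 5.75% of all genes, and limma voom called 14, beside 7.24%. Without the 2 NS-R libraries that carried airway RNA the list's median was -1.63. In that fit Egr3 stood at -5.77, Egr2 at -4.94 and Jun at -1.99, whereas Junb was -1.35, Btg2 -1.77, Ier2 -1.61, Fosb -2.42 and Fos -0.19. Leaving out NS-R replicate 2 alone gave -1.62 for Fos and -2.36 for Fosb.

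Promoters of the list were searched because 17 of the 18 members had a negative interaction. Those of Egr2, Btg2 and Nr4a1, which hold matches, are printed as examples. They are the 250 bases before a transcription start in RefSeq (GRCm38.p6), and capitals mark matches to 2 motifs that are textbook elements of immediate early promoters. These are the CArG box bound by serum response factor and the cAMP response element core TGACG or its reverse complement CGTCA, which can overlap in TGACGTCA.
Egr2 at chr10:67537619-67537868, plus strand: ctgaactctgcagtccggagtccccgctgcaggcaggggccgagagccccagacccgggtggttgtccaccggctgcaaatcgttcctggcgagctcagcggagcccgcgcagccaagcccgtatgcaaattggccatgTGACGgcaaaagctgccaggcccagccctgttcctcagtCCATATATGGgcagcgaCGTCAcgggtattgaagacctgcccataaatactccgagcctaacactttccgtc
Btg2 at chr1:134079156-134079405, minus strand: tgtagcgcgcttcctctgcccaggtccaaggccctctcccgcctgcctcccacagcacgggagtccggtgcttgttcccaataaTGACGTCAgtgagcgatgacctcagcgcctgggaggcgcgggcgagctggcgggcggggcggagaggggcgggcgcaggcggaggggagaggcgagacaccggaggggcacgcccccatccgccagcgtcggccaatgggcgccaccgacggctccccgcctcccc
Nr4a1 at chr15:101266596-101266845, plus strand: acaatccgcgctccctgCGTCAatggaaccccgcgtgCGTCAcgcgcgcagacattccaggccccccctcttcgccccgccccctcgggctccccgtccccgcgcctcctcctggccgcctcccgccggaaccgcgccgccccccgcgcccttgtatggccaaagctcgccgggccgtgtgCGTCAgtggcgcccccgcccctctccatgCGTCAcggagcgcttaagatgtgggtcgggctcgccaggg
The Egr2 window holds a CArG box 72 bases before the start with a core on either side of it, Btg2 holds a full TGACGTCA, and Nr4a1 holds 4 cores. Both strands were searched in every window of a gene, and of the 5 Egr2 windows the one with the most matches is printed. Of 15 immediate early genes with a window, 11 held the core, against 19.8% of all 27025 genes with one. TGACGTCA was found in 2 of the 15 (1.77% of all genes) and the CArG box in Egr2 alone (1.62%). Jun, Jund, Fosl2 and Ier3 held no match, and Nr4a3, the list's only positive member, held the core. The list's other members are Egr1, Egr3, Ier2, Fosl1 and Arc. These are matches to letters and no binding was measured.

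Beyond the immediate early genes, the smallest p-values of a negative interaction belonged to genes of unrelated roles that shared the same 4-group pattern. Hid1, involved in the formation of secretory granules, stood at 4.88, 5.85 and 7.46 CPM in WTS-R, 15.1, 16.7 and 9.68 in NS-R, 14.8, 16.4, 24 and 11 in TS-R, and 4.86, 6.18 and 5.32 in NTS-R. All NS-R and TS-R libraries lay above all others, and the interaction was -2.79 (SE 0.43, adjusted p = 0.115). Stc2, which encodes the secreted glycoprotein stanniocalcin 2, stood at 1.22, 0.692 and 1.61 CPM in WTS-R, 4.92, 3.46 and 3.0 in NS-R, 3.81, 4.02, 4.97 and 3.47 in TS-R, and 1.21, 1.75 and 1.69 in NTS-R. It was also separated without overlap, with an interaction of -3.09 (SE 0.49, adjusted p = 0.115). Prkcz, an atypical protein kinase C, stood at 1.09, 1.01 and 2.32 CPM in WTS-R, 5.11, 7.27 and 3.61 in NS-R, 5.23, 4.75, 8.19 and 3.84 in TS-R, and 2.02, 1.91 and 1.29 in NTS-R, and its interaction was -3.51 (SE 0.59, adjusted p = 0.115). Mxd1, a partner of Max that opposes Myc, stood at 12.6, 11.3 and 8.55 CPM in WTS-R, 22.9, 15.2 and 19.9 in NS-R, 22.1, 28.2, 32.5 and 18.4 in TS-R, and 10.1, 9.0 and 13.1 in NTS-R, with -2.08 (SE 0.36, adjusted p = 0.115). In both genes NS-R and TS-R lay above WTS-R and NTS-R in every library. Asprv1, a retroviral-like aspartic protease, had an interaction of -3.03 (SE 0.48, adjusted p = 0.115) at group means of 0.467 ± 0.0708 CPM (SD, n = 3) in WTS-R, 1.26 ± 0.147 in NS-R (n = 3), 2.17 ± 0.59 in TS-R (n = 4) and 0.707 ± 0.115 in NTS-R (n = 3). Ltk, a receptor tyrosine kinase, rested on few reads, with 4 counts in all of WTS-R and 4 in all of NTS-R. NS-R and TS-R lay above both groups in every library, and no fold is given for it.

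The inflammasome and interleukin-1 genes tell where the knocked-out gene itself and its pathway stood. Nlrp3 stood at 0.641, 0.252 and 0.707 CPM in WTS-R, 0.995, 0.462 and 1.57 in NS-R, 0.455, 1.22, 2.94 and 1.1 in TS-R, and 1.21, 0.534 and 0.403 in NTS-R, from 4 to 104 counts per library. The groups overlapped, Nlrp3 RNA was present in the recipients of both knockout donor groups, and the interaction of -1.87 (SE 0.97, adjusted p = 0.328) did not pass. In recipient tissue this level does not check the donor's genotype. Il1b encodes IL-1β, whose maturation as a protein the inflammasome leads to, and its RNA level does not measure that step. Il1b stood at 0.513, 0.566 and 0.90 CPM in WTS-R, 1.86, 3.18 and 2.11 in NS-R, 1.79, 4.08, 7.17 and 2.93 in TS-R, and 0.983, 0.61 and 0.645 in NTS-R. Every NS-R and TS-R library lay above every WTS-R and NTS-R library, which were all below 1 CPM. Its interaction was -4.24 (SE 0.71, adjusted p = 0.115, unadjusted p = 5.13e-05), with a donor diabetes difference of 2.59 (SE 0.50) for wild-type donors and -1.65 (SE 0.50) for knockout donors.

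**Figure D3:**
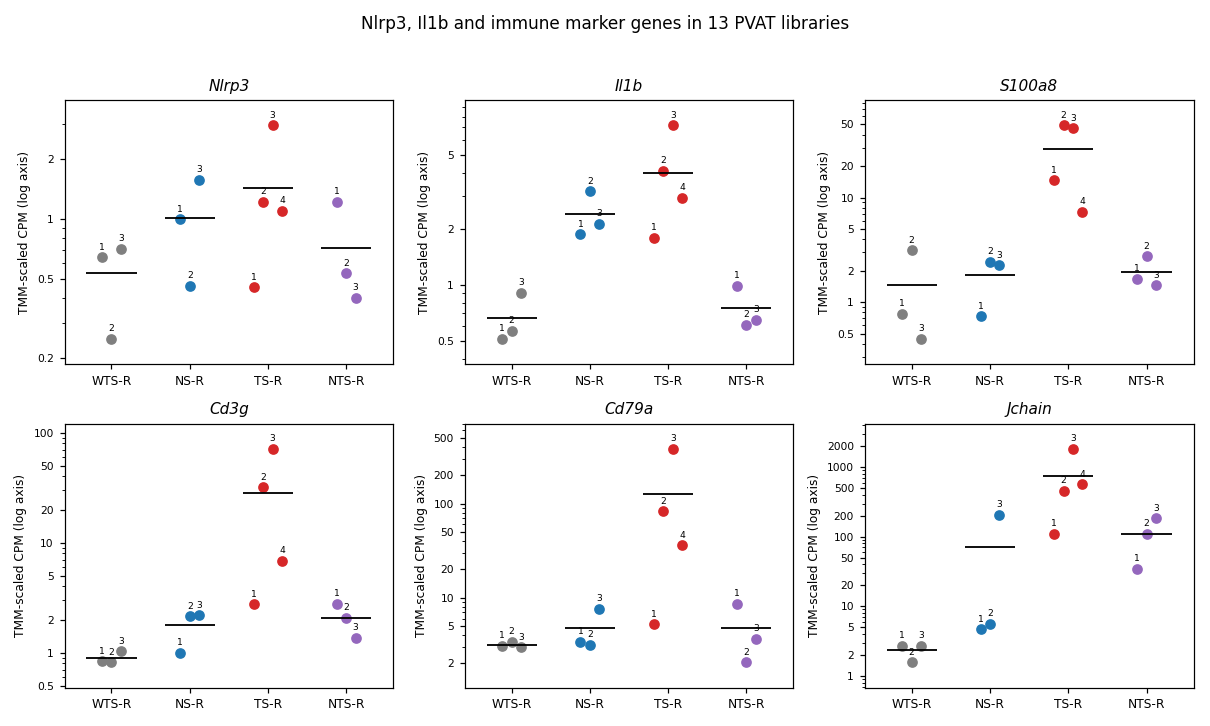
TMM-scaled CPM on a log axis for Nlrp3, Il1b and 4 marker genes of neutrophils (S100a8), T cells (Cd3g), B cells (Cd79a) and plasma cells (Jchain) in each library, numbered by replicate, with the group mean as a bar. Il1b separated NS-R and TS-R from the other groups, whereas the 4 marker genes had their highest mean in TS-R, with wide spread among its libraries.

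Of 25 tested members of this list of 28, 6 had a negative and 1 a positive interaction at an unadjusted p under 0.05, beside 13.6% and 4.7% of all genes, and the median was -0.78. The inflammasome adaptor Pycard stood at 2.01 to 4.31 CPM in WTS-R, 2.79 to 4.96 in NS-R, 4.8 to 22.4 in TS-R and 1.83 to 4.34 in NTS-R, with an interaction of -2.32 (SE 0.77, adjusted p = 0.165). The DNA sensor Aim2 stood at 1.01 to 2.19 CPM in WTS-R, 1.73 to 2.39 in NS-R, 3.04 to 36.5 in TS-R and 1.45 to 2.49 in NTS-R, with -3.49 (SE 1.02, adjusted p = 0.154). TS-R replicate 3 had the highest value of both. The interleukin-18 receptor genes Il18r1 and Il18rap had interactions of -4.78 (SE 1.18, adjusted p = 0.136) and -3.08 (SE 0.95, adjusted p = 0.156). Il18r1 reached 10.7 and 11 CPM in the NS-R libraries with airway RNA and 2.25 in the third, and its interaction was -2.95 without those 2 libraries. Mefv, the gene of the sensor pyrin, had -4.65 (SE 1.85, adjusted p = 0.216). It failed the low-count filter when TS-R replicate 2 or TS-R replicate 3 was left out. Its place among the tested negative members therefore rests on these libraries. The exception was Il18bp, a soluble inhibitor of interleukin-18, at 2.11 (SE 0.86, adjusted p = 0.221). It was highest in WTS-R replicate 1 (35.5 CPM) and NTS-R replicate 1 (43.0 CPM), and its interaction was 0.86 without the latter. Casp1, the protease of the complex, had -0.76 (SE 0.47, adjusted p = 0.408), its substrate Gsdmd -0.46 (SE 0.52, adjusted p = 0.684) and Il18 -0.88 (SE 0.58, adjusted p = 0.441). Of the other 14 tested members, Nlrc4 (-1.92), P2rx7 (-1.23), Nlrp1b (-1.2), Il33 (-1.03), Il1rn (-0.78), Irak4 (-0.68), Nek7 (-0.55), Il1r1 (-0.54), Casp4 (-0.22) and Il1rl1 (-0.15) had negative values, and Myd88 (0.12), Il1rap (0.22), Irak3 (0.42) and Txnip (0.80) positive ones. Their adjusted p was at least 0.279, and Nlrp1a, Il1a and Il1r2 had too few counts to be tested. TS-R held the highest mean in 18 of the 25 genes and TS-R replicate 3 the highest single value in 18. Without that library the list's median was -0.37 and Nlrp3 stood at -1.16, Casp1 at -0.39, Gsdmd at -0.11 and Il18 at -0.55. With sex as a covariate, read from whether Xist exceeded Ddx3y, Nlrp3 stood at -0.75. That covariate sets NS-R replicate 3 and TS-R replicate 3 apart from the others, so sex and their other traits cannot be told apart.

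Cytokine genes were mixed. Of 20 tested members of 24, 5 had a negative and 1 a positive interaction at an unadjusted p under 0.05, beside 13.6% and 4.7% of all genes. The median of -0.69 became -0.13 without TS-R replicate 3 and -1.13 without WTS-R replicate 3. Tnf, a central inflammatory cytokine, stood at 0.77, 0.566 and 1.29 CPM in WTS-R, 0.969, 1.5 and 1.23 in NS-R, 1.28, 3.17, 6.24 and 1.59 in TS-R, and 0.347, 0.381 and 0.484 in NTS-R. NTS-R lay below all other libraries and the interaction was -3.41 (SE 0.82, adjusted p = 0.136). The neutrophil attractant Cxcl1 had -2.55 (SE 0.83, adjusted p = 0.161), or -1.60 without NS-R replicate 2, where it reached 8.78 CPM. The interferon-γ-induced chemokine gene Cxcl9 had 2.66 (SE 0.91, adjusted p = 0.172) and was highest in NTS-R replicate 1 and WTS-R replicate 1. Without NTS-R replicate 1 it was 1.34.

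Markers of T cells, B cells, plasma cells and neutrophils had lower list medians than the immediate early genes, with another order of the group means. Most had their highest mean in TS-R. All 22 T cell genes had a negative interaction at an unadjusted p under 0.05, beside 13.6% of all genes, with a median of -4.65. The median donor diabetes difference over the list was 4.86 for wild-type donors and 0.12 for knockout donors. Their summed levels were 34.3 to 55.7 CPM in WTS-R, 44.3 to 77.3 in NS-R, 65.9 to 1502 in TS-R and 38.4 to 74 in NTS-R. Cd3g, a chain of the T cell receptor complex, stood at 0.834, 0.818 and 1.03 CPM in WTS-R, 0.995, 2.14 and 2.18 in NS-R, 2.76, 32, 71 and 6.83 in TS-R, and 2.77, 2.06 and 1.37 in NTS-R. TS-R replicate 1 overlapped NTS-R, and TS-R replicate 3 was highest. The interaction was -4.71 (SE 1.29, adjusted p = 0.152). Cd247, the zeta chain, was the T cell gene with the smallest p at -3.33 (SE 0.74, adjusted p = 0.119). All its NS-R and TS-R libraries lay above all others. The adaptor Lat had -4.81 (SE 1.30, adjusted p = 0.15).

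B cell genes followed, with 16 of 17 negative at an unadjusted p under 0.05, beside 13.6% of all genes, and a median of -5.48. The B cell receptor chain Cd79a stood at 3.08, 3.4 and 2.96 CPM in WTS-R, 3.4, 3.18 and 7.56 in NS-R, 5.23, 82.5, 379.9 and 35.9 in TS-R, and 8.67, 2.06 and 3.63 in NTS-R, with an interaction of -5.27 (SE 1.54, adjusted p = 0.154). Fcrla, a B cell protein related to Fc receptors, had -6.15 (SE 1.70, adjusted p = 0.152). In plasma cell genes, 13 of 16 were negative at that threshold, beside the same 13.6%, with a median of -5.85. Jchain, which joins IgA and IgM into polymers, stood at 2.69, 1.57 and 2.7 CPM in WTS-R, 4.66, 5.6 and 207 in NS-R, 109.6, 459, 1815 and 564 in TS-R, and 34.3, 109.5 and 184 in NTS-R. NTS-R also stood above WTS-R, and the high value in NS-R was that of replicate 3. The interaction was -7.71 (SE 1.95, adjusted p = 0.14), or -3.87 without NS-R replicate 3, and the plasma cell median became -3.20 without it. Ighg1 had 3 or fewer counts in a group, and the median without it was -5.44. Immunoglobulin genes can share reads, so their values are less certain.

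Neutrophil genes had a median of -4.79, with 10 of 12 tested members negative at an unadjusted p under 0.05, beside 13.6% of all genes. S100a9, a subunit of the granulocyte protein calprotectin, stood at 1.73, 5.79 and 1.29 CPM in WTS-R, 2.91, 5.2 and 6.0 in NS-R, 36.3, 115, 131 and 23.8 in TS-R, and 4.34, 4.42 and 3.23 in NTS-R. Every TS-R library lay above every other library, and the interaction was -4.91 (SE 0.95, adjusted p = 0.115). Its partner S100a8 had -4.17 (SE 1.13, adjusted p = 0.152), and Retnlg, a resistin-like granulocyte gene, had -6.73 (SE 1.18, adjusted p = 0.115). Ltf, lactoferrin, is also made by airway glands. It stood at 428 and 761 CPM in the NS-R libraries with airway RNA and 0.136 CPM in the third, against 0.0641 to 1.38 CPM in WTS-R, 2.32 to 25.6 CPM in TS-R, 0.161 to 0.305 CPM in NTS-R. Its interaction of -15.48 (SE 2.80, adjusted p = 0.115) became -4.06 without those 2 libraries, a fit that leaves replicate 3 alone in NS-R. The Ltf value of that library, and the lowest in WTS-R and NTS-R, were below 3 counts. The size of both interactions is therefore uncertain.

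Other immune lists also held genes negative at an unadjusted p under 0.05, beside 13.6% of all genes. These were 9 of 13 T helper and regulatory genes (median -3.62) and 4 of 12 NK and cytotoxic genes (median -2.42). So were 9 of 17 dendritic cell and MHC class II genes (median -1.75). Ccr6, on the T helper list, had no counts in 1 group. With that gene at its 3-count bound the T helper median was -3.62. Siglech, a plasmacytoid dendritic cell receptor, had -6.49 (SE 1.36, adjusted p = 0.115). Cd74, the MHC class II invariant chain, had -1.59 (SE 0.72, adjusted p = 0.266) and reached its highest value of 2584 CPM in TS-R replicate 3. The median was -0.28 over 19 macrophage and monocyte genes, of which 4 were negative at that threshold beside 13.6% of all genes. This list was mixed. Whatever the p-value, 11 of the 19 were negative (57.9%, beside 53.5% of all genes) and 8 positive, up to 1.32. Leaving out 1 library at a time gave medians from -0.56 (without WTS-R replicate 3) to -0.04 (without TS-R replicate 4). The chemokine receptor Ccr2 stood at 7.57 to 11.8 CPM in WTS-R, 11.2 to 13.7 in NS-R, 11.5 to 25.8 in TS-R and 8.24 to 13.7 in NTS-R, with -1.29 (SE 0.41, adjusted p = 0.159), and Csf1r, the macrophage growth factor receptor, had -1.2 (SE 0.48, adjusted p = 0.217). All 18 cell division genes were negative, 15 of them at an unadjusted p under 0.05, beside 13.6% of all genes, with a median of -2.82. All 18 were highest in TS-R replicate 3. The mitotic kinase Plk1 stood at 1.48, 1.19 and 0.643 CPM in WTS-R, 2.72, 3.29 and 1.64 in NS-R, 1.56, 4.57, 22.6 and 2.07 in TS-R, and 1.45, 0.839 and 1.29 in NTS-R, with -3.90 (SE 1.19, adjusted p = 0.154).

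Much of this rested on 1 library. TS-R replicate 3 held the highest value of all 22 T cell genes and of 16 of the 17 B cell genes. Without it the medians were -3.65 for T cells, -3.74 for B cells, -4.58 for plasma cells, -4.21 for neutrophils, -1.10 for dendritic cells, -0.99 for NK cells and -1.32 for cell division. Plk1 was -2.34 and Cd74 -0.95. With sex as a covariate, the medians were -2.96 for T cells, -3.49 for B cells, -2.78 for plasma cells, -2.06 for T helper genes, -0.93 for dendritic cells, -1.03 for NK cells and -1.22 for cell division. That covariate marks only NS-R replicate 3 and TS-R replicate 3, so sex and other traits of these libraries cannot be told apart. In the 11 libraries with more Ddx3y than Xist the plasma cell median was -2.39. There NS-R holds only its libraries with airway RNA. The list of lymph node vessels and stroma, tissue that can adhere to dissected fat, moved with the lymphocyte lists. Its summed levels were 264 to 331 CPM in WTS-R, 259 to 306 in NS-R, 307 to 2627 in TS-R and 251 to 321 in NTS-R, with a median interaction of -4.35, or -3.10 without 3 genes that had 3 or fewer counts in a group. Leaving out TS-R replicate 3 gave this list -2.30, leaving out TS-R replicate 2 gave -2.80, and the sex covariate gave -2.16. Its part in the lymphocyte values was not tested.

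**Figure D4:**
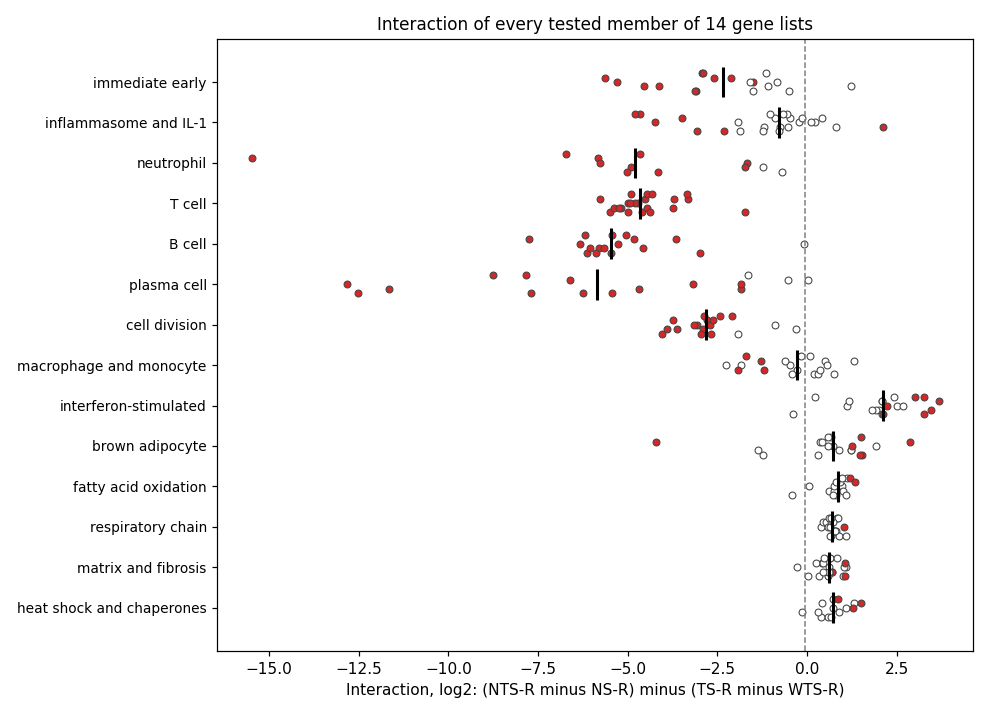
Interaction on the log2 scale (horizontal axis) of every tested member of 14 gene lists (rows). Filled points have an unadjusted p under 0.05, black bars are list medians and the dashed line is the median of all genes, -0.06. The medians of the immune, cell division and immediate early lists lie left of the dashed line, and those of the interferon, adipocyte, mitochondrial, matrix and chaperone lists lie right of it.

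Positive interactions were smaller. The leading genes had lower values in TS-R, and mostly in NS-R, than in the other groups, and NTS-R mostly stood nearer to WTS-R. Gpx8, a glutathione peroxidase family member of the endoplasmic reticulum, stood at 111, 115 and 99.2 CPM in WTS-R, 72.8, 102 and 72.8 in NS-R, 36.4, 41.5, 31.8 and 65.5 in TS-R, and 99, 108 and 142 in NTS-R. All TS-R libraries lay below all others, and the interaction was 1.80 (SE 0.36, adjusted p = 0.115). The nuclear import receptor Ipo4 stood at 33.2, 30.6 and 29.8 CPM in WTS-R, 21.7, 25 and 23.9 in NS-R, 17.8, 18.6, 18.7 and 21.9 in TS-R, and 31.9, 29.1 and 25.1 in NTS-R. NS-R and TS-R lay below WTS-R and NTS-R in every library, and the interaction was 0.98 (SE 0.21, adjusted p = 0.115). Hacd2, an enzyme of very long chain fatty acid elongation, stood at 103, 109 and 101 CPM in WTS-R, 52.5, 83 and 61.9 in NS-R, 33.8, 54.5, 26.1 and 58.5 in TS-R, and 104, 79.2 and 94.6 in NTS-R, with 1.76 (SE 0.39, adjusted p = 0.119). The melanocortin receptor gene Mc5r stood at 7.95, 10.8 and 4.37 CPM in WTS-R, 2.7, 4.62 and 7.36 in NS-R, 2.1, 2.01, 2.77 and 3.35 in TS-R, and 9.13, 7.32 and 9.84 in NTS-R, and its interaction was 2.44 (SE 0.55, adjusted p = 0.12). Cdkn1a, which encodes the cell cycle inhibitor p21, stood at 282, 363 and 231 CPM in WTS-R, 121, 165 and 155 in NS-R, 53.6, 31.7, 30.1 and 90.5 in TS-R, and 262, 85.3 and 87.2 in NTS-R. All WTS-R libraries lay above all TS-R libraries, NTS-R was wide, and the interaction was 2.48 (SE 0.66, adjusted p = 0.147). The carbonic anhydrase Car13 and the mitochondrial ribosomal protein Mrps2 had 1.38 (SE 0.32, adjusted p = 0.125) and 1.04 (SE 0.26, adjusted p = 0.136). The chaperone cofactor Dnajc25, the sorting nexin Snx10 and the 14-3-3 protein gene Ywhaq had 1.24 (SE 0.32, adjusted p = 0.147), 1.36 (SE 0.36, adjusted p = 0.147) and 0.87 (SE 0.23, adjusted p = 0.147).

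Respiratory chain and fatty acid oxidation genes had mostly positive interactions, whereas fatty acid and triglyceride synthesis genes were mixed. All 20 respiratory chain genes were positive, with a median of 0.70, although 1 reached an unadjusted p under 0.05 beside the background of 4.7%. All 20 were highest on average in WTS-R and lowest in TS-R. NS-R and TS-R means lay below both other groups in 17 of the 20. That order was found in 21.4% of all genes, and in 92.5% of the 812 with a positive interaction at that threshold. A positive contrast favours it by its form, so this count describes the genes and tests nothing. Sdhc, a membrane anchor of succinate dehydrogenase, stood at 488, 466 and 496 CPM in WTS-R, 402, 412 and 342 in NS-R, 259, 326, 125 and 355 in TS-R, and 420.5, 459.6 and 429 in NTS-R. NS-R and TS-R lay below WTS-R and NTS-R in every library, and the interaction was 1.04 (SE 0.42, adjusted p = 0.219).

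Fatty acid oxidation genes behaved alike in direction, with 15 of 16 positive and a median of 0.87. Of these, 2 had an unadjusted p under 0.05, beside 4.7% of all genes. Hadh, a dehydrogenase of the mitochondrial spiral, stood at 1174, 1197 and 1127 CPM in WTS-R, 811, 1053 and 760.0 in NS-R, 719, 773, 231 and 972 in TS-R, and 1056, 1306 and 1115 in NTS-R. Its NS-R and TS-R libraries all lay below the other 6, and the interaction was 1.2 (SE 0.54, adjusted p = 0.262). Acadl, the long-chain acyl-CoA dehydrogenase, stood at 1872, 1777 and 1656 CPM in WTS-R, 1182, 1459 and 1284 in NS-R, 1204, 1034, 354 and 1366 in TS-R, and 1564, 1577 and 1604 in NTS-R. It was separated in the same way, with 1.11 (SE 0.52, adjusted p = 0.28). Etfdh, which passes electrons from acyl-CoA dehydrogenases to ubiquinone, had 1.34 (SE 0.58, adjusted p = 0.242). limma voom called 8 of these 16 genes as positive, beside 3.6% of all genes, and DESeq2 none. Of 16 fatty acid and triglyceride synthesis genes, 10 were positive and 6 negative, with a median of 0.29. At an unadjusted p under 0.05, 0 were positive and 1 negative, beside 4.7% and 13.6% of all genes. Without both NS-R libraries with airway RNA that median was -0.24.

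**Figure D5:**
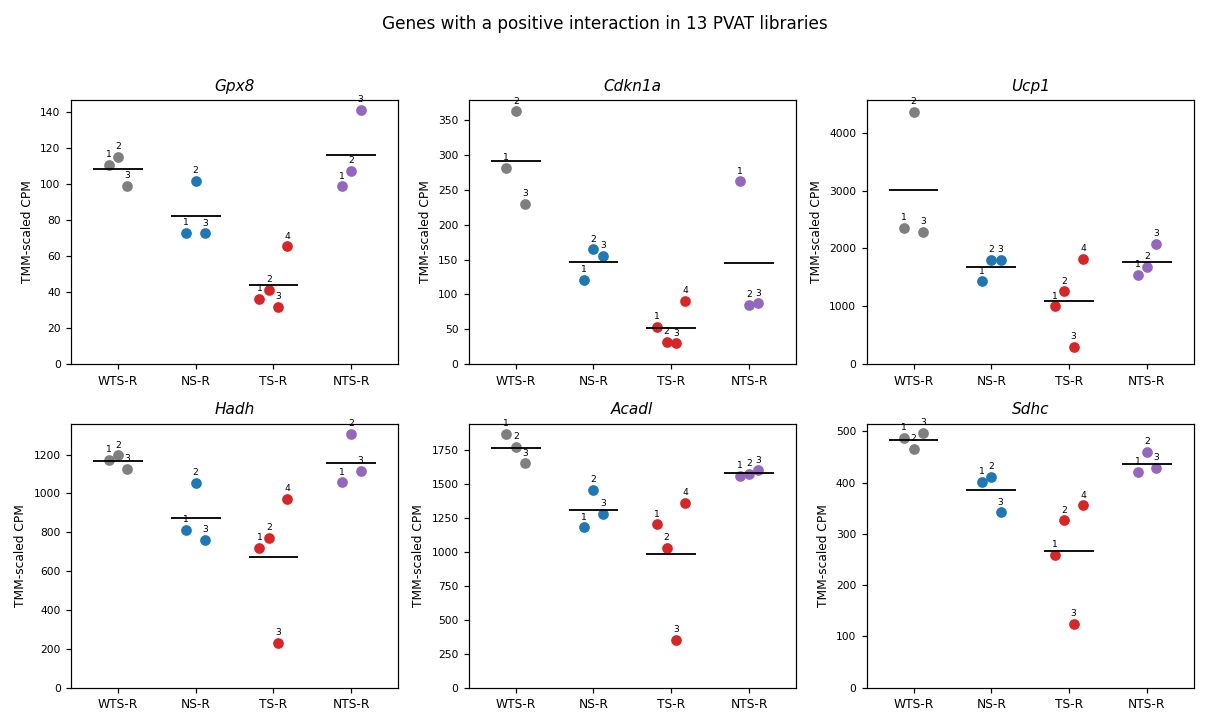
TMM-scaled CPM, with axes from 0, of 6 genes with a positive interaction in each library, numbered by replicate, with the group mean as a bar. TS-R held the lowest mean and TS-R replicate 3 the lowest value of all 6 genes.

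Brown adipocyte genes had a median of 0.73. Of 19 tested members, 5 were positive and 1 negative at an unadjusted p under 0.05, beside 4.7% and 13.6% of all genes. Ucp1, the uncoupling protein of brown fat, stood at 2356, 4367 and 2285 CPM in WTS-R, 1429, 1808 and 1807 in NS-R, 999, 1255, 303 and 1820.3 in TS-R, and 1541, 1682 and 2085 in NTS-R. All WTS-R libraries lay above all others, the other 3 groups overlapped, and the interaction was 1.53 (SE 0.68, adjusted p = 0.254). Ppargc1a, a coactivator of mitochondrial biogenesis, and Ebf2, a determinant of brown adipocyte identity, had 2.89 (SE 1.12, adjusted p = 0.207) and 1.49 (SE 0.49, adjusted p = 0.165). The negative member was Ckmt1, a mitochondrial creatine kinase, at -4.20 (SE 1.42, adjusted p = 0.169). It stood at 9.43 and 13.8 CPM in the NS-R libraries with airway RNA, and without them its interaction was 0.03. Adipocyte identity genes had a median of 0.82, with 16 of 19 positive and 3 negative, down to -2.12. At an unadjusted p under 0.05, 1 was positive, beside 4.7% of all genes, and this was Adipoq. Adipoq had 1.16 (SE 0.52, adjusted p = 0.257).

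TS-R replicate 3 had the lowest value of all 20 respiratory chain genes, 15 of 16 fatty acid oxidation genes and 15 of 19 brown adipocyte genes. Without it the medians were 0.46, 0.61 and 0.57, and that of the adipocyte identity genes was 0.55. With sex as a covariate they were 0.31 for the respiratory chain, 0.41 for fatty acid oxidation, 0.41 for brown adipocyte genes and 0.30 for adipocyte identity. That covariate marks only NS-R replicate 3 and TS-R replicate 3, so sex and other traits of these libraries cannot be told apart. The lymphocyte lists moved the opposite way in TS-R replicate 3, and their part in these values was not tested.

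Matrix genes were lowest in TS-R for all 22 members, with 21 positive interactions and a median of 0.62. Of these 21, 3 had an unadjusted p under 0.05, beside 4.7% of all genes. Loxl2, which cross-links collagen, stood at 30.1, 28.1 and 20.6 CPM in WTS-R, 25, 26.6 and 18.9 in NS-R, 9.55, 11.4, 6.15 and 13.7 in TS-R, and 22, 14.5 and 19.8 in NTS-R. All TS-R libraries lay below all others, and the interaction was 1.05 (SE 0.39, adjusted p = 0.191). Its relative Lox had 1.05 (SE 0.45, adjusted p = 0.244), and the matricellular gene Postn had 0.69 (SE 0.29, adjusted p = 0.229). Collagen III, Col3a1, had 1.09 (SE 0.67, adjusted p = 0.411), or 0.70 without NS-R replicate 3 and 0.66 without NTS-R replicate 1. For matrix genes the diabetes difference had the same sign with both donors, with list medians of -1.11 for wild-type and -0.45 for knockout donors. The list's interaction was 1.17 without the 2 NS-R libraries with airway RNA and 0.37 without NTS-R replicate 1. It was 0.25 in the 11 libraries with more Ddx3y than Xist, where NS-R holds only the libraries with airway RNA.

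Chaperone genes were highest in NTS-R for 13 of 14 members, with a median interaction of 0.72. At an unadjusted p under 0.05, 3 were positive, beside 4.7% of all genes. The mitochondrial chaperonin Hspd1 stood at 491 to 602 CPM in WTS-R, 400.4 to 411 in NS-R, 274 to 555 in TS-R and 531 to 631 in NTS-R, with 0.86 (SE 0.35, adjusted p = 0.221). The small heat shock protein Hspb1 and the co-chaperone Bag3 had 1.5 (SE 0.66, adjusted p = 0.254) and 1.28 (SE 0.56, adjusted p = 0.247). limma voom called 4 of the 14 as positive, beside 3.6% of all genes, and edgeR and DESeq2 none. Without NS-R replicate 1 the median was 0.45. Fkbp5, a co-chaperone of the glucocorticoid receptor and a classic glucocorticoid target, stood at 40, 43.8 and 13.6 CPM in WTS-R, 20.3, 18.6 and 18.1 in NS-R, 48.9, 44.5, 43.2 and 40.1 in TS-R, and 108, 61 and 77.4 in NTS-R. NTS-R lay above all other libraries, and the interaction was 1.67 (SE 0.46, adjusted p = 0.152). Of 13 glucocorticoid-responsive genes, 2 were positive at an unadjusted p under 0.05, Fkbp5 and Cdkn1a, beside 4.7% of all genes.

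Interferon-stimulated genes had the highest list median, 2.11, with 19 of 20 positive. Of these 19, 7 had an unadjusted p under 0.05, beside 4.7% of all genes. The highest values came from 1 library in each of 2 groups. Isg15, an antiviral ubiquitin-like protein, stood at 224, 12.1 and 28.9 CPM in WTS-R, 36.4, 18.4 and 15.1 in NS-R, 16.2, 12.1, 18.5 and 12.6 in TS-R, and 96.8, 11 and 4.84 in NTS-R. The transcription factor Irf7 stood at 359.6, 31.2 and 65.6 CPM in WTS-R, 61.5, 47.1 and 30.8 in NS-R, 39.2, 34.5, 55.2 and 37.9 in TS-R, and 316, 27.2 and 21.1 in NTS-R. WTS-R replicate 1 and NTS-R replicate 1 lay far above all others in both genes, and the interactions were 3.26 (SE 1.43, adjusted p = 0.252) and 3.25 (SE 1.33, adjusted p = 0.223). Bst2, an antiviral tether, had 2.22 (SE 0.88, adjusted p = 0.215). Without WTS-R replicate 1 the list's median was 0.46, and without NTS-R replicate 1 it was 0.73. Without NTS-R replicate 1, Isg15 stood at 1.02, Irf7 at 0.93 and Bst2 at 0.82, and without WTS-R replicate 1, Isg15 stood at 1.17 and Irf7 at 1.62.

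Clock output genes also differed between libraries of a group. The arm led by Dbp, a circadian transcription factor, had a median of -0.66. It was -0.27 without NS-R replicate 3 and -1.15 without WTS-R replicate 1. Of its 12 genes, 4 were negative at an unadjusted p under 0.05, beside 13.6% of all genes. In the opposite arm led by Arntl all 6 genes were positive, with a median of 0.78. Of these 6, 2 passed that threshold, beside 4.7% of all genes. Bhlhe40, a repressor of clock genes, stood at 20.1 to 30.6 CPM in WTS-R, 38.6 to 59.1 in NS-R, 38.3 to 78.6 in TS-R and 19.8 to 50.6 in NTS-R, with -1.86 (SE 0.49, adjusted p = 0.147). Per3, a period gene, stood at 16.9, 11.3 and 11.8 CPM in WTS-R, 27.5, 19.9 and 73.7 in NS-R, 94.1, 72.4, 34.1 and 54.1 in TS-R, and 18.8, 55.1 and 50.7 in NTS-R. WTS-R was low, while replicate 3 of NS-R, and replicates 2 and 3 of NTS-R, each stood within the TS-R range. Its interaction of -2.21 (SE 0.72, adjusted p = 0.16) was -1.44 without NS-R replicate 3. Nfil3, a repressor in antiphase to Dbp, had 1.90 (SE 0.66, adjusted p = 0.176), or 1.15 without NTS-R replicate 1. The summed Dbp arm ranged over 295 to 546 CPM in WTS-R, 500.1 to 1127 in NS-R, 441 to 1036 in TS-R and 530.3 to 1223 in NTS-R. Collection time is not in the labels and its part in these values was not tested.

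Nerve, vessel and epithelial genes completed the negative side. Of 15 nerve and Schwann cell genes, 5 were negative at an unadjusted p under 0.05, beside 13.6% of all genes. The list's median was -2.06, or -1.35 without TS-R replicate 1 and -1.30 without the NS-R libraries with airway RNA. Ngfr, the low-affinity neurotrophin receptor, stood at 2.5, 2.83 and 4.24 CPM in WTS-R, 7.1, 3.81 and 6.95 in NS-R, 21.1, 14.7, 11.2 and 1.83 in TS-R, and 1.33, 1.37 and 0.968 in NTS-R. NTS-R lay below all others, and the interaction was -4.21 (SE 0.88, adjusted p = 0.115). Sele, an endothelial adhesion receptor for leukocytes, stood at 0.577, 0.252 and 0.322 CPM in WTS-R, 3.33, 0.231 and 2.11 in NS-R, 2.47, 2.25, 2.0 and 1.65 in TS-R, and 0.751, 1.14 and 0.323 in NTS-R, with -3.80 (SE 1.0, adjusted p = 0.147), although endothelial genes as a list had a median of -0.26. The airway secretory gene Scgb3a1 and the epithelial cadherin Cdh1 had -10.18 (SE 2.34, adjusted p = 0.125) and -10.31 (SE 2.10, adjusted p = 0.115), and -0.97 and -2.23 without the 2 NS-R libraries. Vascular smooth muscle genes had a median of -0.50, with 1 of 13 negative at that threshold beside 13.6% of all genes, and vasoactive factors a median of 0.07.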

How the data were processed

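Per the labels, RNA was extracted with TRIzol and sequenced as paired-end mRNA libraries. The authors deposited raw counts per gene, and the submitters' processing notes name HISAT2 and featureCounts. For versions, build, annotation and strandedness the sources used here state nothing, so antisense and overlapping genes cannot be told apart. Of 34013 genes, 33302 carried a symbol. The counts were filtered with edgeR's filterByExpr, leaving 17270 genes, scaled by TMM and fitted with the quasi-likelihood test (edgeR 4.0.16, R 4.3.3) over 4 groups, with Benjamini-Hochberg adjustment over all genes tested and a threshold of 0.05. DESeq2 1.42.0, limma 3.58.1 (voom with quality weights), other filters and size factors, covariates, a replicate block and left-out libraries were tried. No pair of libraries of the same group agreed within sampling noise (lowest chi-square per degree of freedom 35.98). Pairs from different groups were not compared in this way. The fit was tested on simulated data. Genes named are Nlrp3, up to 10 per direction by p with a mean of at least 1 CPM and a symbol, the member of each of 35 lists with the smallest p and with the highest mean, and all inflammasome genes tested; others were chosen after their values were seen. Members and lists were chosen with earlier results of these data known. A level of 3 counts corresponds to 0.0786 to 0.242 CPM.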

Additional observations from a re-analysis of the deposited data

Results flagged for a closer look

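In TS-R, the group of 4 libraries, 6 values lay far from the other 3 in 86 genes and 35 list levels examined. Chance gives about 1 in 20 groups. Cd74 reached 2584 CPM and Plk1 22.6 CPM in replicate 3. Junb reached 95.4 CPM in replicate 2, and Ckmt1 6.05 CPM in replicate 1. The mean log2(CPM + 0.5) of cardiac muscle genes was 3.80 in replicate 3, lower than in the other 3, and that of sex-linked genes was 1.09 in replicate 3, also lower than in the other 3.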

How the results depend on the processing

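At an adjusted p of 0.05 the edgeR interaction called 0 genes in either direction, and so did RLE size factors, a mean of at least 1 CPM, robust empirical Bayes and the fit without both NS-R libraries with airway RNA. Positive and negative calls were 95 and 991 with DESeq2, 621 and 1251 with limma voom, 1 and 91 with no low-count filter, 5 and 396 in the 11 libraries with more Ddx3y than Xist, 0 and 21 with sex as a covariate, 0 and 117 with the clock level as a covariate, and 1 and 149 when replicates 1 and 3 of TS-R were left out. The 2 fits that left out pairs of NS-R or TS-R libraries were chosen after seeing the data. Leaving out 1 library at a time gave 0 to 8 positive and 0 to 510 negative calls. The cause of these differences was not tested. With replicate number as a block, 2 positive and 17 negative genes were called. Deviations of same-numbered libraries correlated by more than 0.1 in 6 of 18 pairs, from -0.30 to 0.31. These values cannot tell whether the numbers pair the samples, and the labels do not say. Egr3 and Egr2 were negative in all 25 alternatives and passed an adjusted p of 0.05 in 12. Ckmt1 went from -4.20 to 0.0288 without both NS-R libraries with airway RNA. Depth limits genes near 3 counts per library, such as Ltk.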
